A study of Saccharomyces cerevisiae with 10 samples.

Results

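SET1 encodes the catalytic subunit of COMPASS, the complex that places mono-, di- and trimethylation on lysine 4 of histone H3 in budding yeast. The mark lies over the 5′ ends of transcribed genes and is known as a mark of transcription, although loss of SET1 in yeast is known chiefly for derepression of repeated, subtelomeric and meiotic genes. The transcriptome of a set1∆ strain was compared here with that of its wild type, over every feature whose values averaged at least 1 FPKM, fragments per kilobase of transcript scaled to the depth of the library, across the strains of the series. Those were 6541 of the 6663 features in the table.

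Both strains were haploid Saccharomyces cerevisiae of the BY4741 background, in which LEU2, MET17 and URA3 are deleted and HIS3 is truncated, and were taken at mid-log phase from YPD cultures at 30 °C. Besides the WT and set1∆ the series holds set5∆, set1∆ set5∆ and SET5 Y402A, a strain with a substitution in Set5, a methyltransferase of histone H4, and all were made in the same background. The labels describe 2 biological replicates of each strain, 10 libraries in all, but the table gives 1 value per strain, so no difference below has a replicate check, the sequencing depth is unknown and no test was run. How many clones stood behind each strain, and which marker replaced SET1, the labels do not say.

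Values over the 5 strains are given in the order WT, set1∆, set5∆, set1∆ set5∆ and SET5 Y402A. A ratio is log2((FPKM + 1)/(FPKM + 1)), so that differences of scarce transcripts come out too small, and a feature is counted as higher or lower when it reached 2-fold on that scale. Because set1∆ set5∆ against set5∆ is the same loss of SET1 in another background and uses neither of the columns compared first, its ratio stands beside that of set1∆ against the WT throughout and is called the second background.

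SET1 (YHR119W) itself stood at 24.3, 0.0328, 24.2, 0.0324 and 25.6 FPKM, near 0 in both strains labelled as lacking it. The other 7 COMPASS subunits had ratios between -0.11 (SDC1) and 0.21 (SHG1). Of the genes beside SET1 on chromosome VIII, ORC6, which encodes a subunit of the origin recognition complex, stood at 25.5, 33.3, 23.4, 40.5 and 24.6 FPKM, and MSH1, a mitochondrial mismatch repair gene, at 14.4, 13.8, 12.9, 18.8 and 13.2 FPKM. ORC6 was thus higher in both strains without SET1 than in the 3 with it, while MSH1 was higher only in set1∆ set5∆. Whether the replaced locus acts on its neighbours was not tested. BY4741 is a MATa strain. The a-specific genes STE2, STE6, MFA1, MFA2, BAR1 and AGA2 were abundant in every strain, with STE2 between 620.4 and 750.4 FPKM, and the α-specific STE3 was between 1.99 and 5.80 FPKM. STE3 and MF(ALPHA)1, the latter between 1.19 and 8.83 FPKM, were both higher in the strains without SET1 than in any strain with it, while MF(ALPHA)2 and SAG1, between 19.3 and 32.9 FPKM, were not. LEU2 was at 0.510 and MET17 at 0.0337 FPKM in the WT. HIS3 stood at 84.9, 134, 77.9, 132 and 76.8 FPKM, higher in both strains without SET1.

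More transcripts were higher than lower without SET1, although not in the second background once features that averaged under 10 FPKM were left out. At least 2-fold, 155 features (2.37% of those compared) were higher in set1∆ than in the WT and 32 (0.489%) were lower. In the second background 187 (2.86%) were higher and 70 (1.07%) lower. The lower features of both comparisons include SET1 itself. Over features that averaged 10 FPKM or more, 66 were higher and 22 lower in set1∆, but 65 higher and 65 lower in the second background. The share of higher features among those past 2-fold in set1∆ was 82.9%, and 67.8% (101 higher, 48 lower) with quantile-normalized values. Among coding genes of at least 300 bp that reached 10 FPKM in either strain, those nearest the threshold were RCH1 at 1.02 and YBR032W at 0.97 on the high side and PER33 at -1.02 and HXT2 at -0.99 on the low side.

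The high side repeated better than the low side. Of the 155 higher features, 143 were above 0 in the second background, with a median ratio of 1.16 there, and 96 were again at least 2-fold higher, which is 61.9% of one list and 51.3% of the other. The median of all features there was 0.00. Scarce features were above that, whether or not they were higher in set1∆. Of the 155, 37 averaged 1 to 3 FPKM and 52 averaged 3 to 10. All features of those classes had medians of 0.50 and 0.29 in the second background. Of the 32 lower features 17 were below 0 in the second background, with a median of -0.23, and 9 were again at least 2-fold lower, 28.1% of one list and 12.9% of the other. The deleted gene SET1 itself is among the 32, the 17 and the 9. There were also 5 features higher in set1∆ that were at least 2-fold lower in the second background, and 6 of the reverse kind. Many of the features past 2-fold were short or scarce. Among coding genes of at least 300 bp that reached 10 FPKM in either strain and were above 0 in both, 5125 in all, 31 were higher, and all 31 were above 0 in the second background, 20 of them at least 2-fold. Apart from SET1, 7 such genes were lower, and 6 were below 0 in the second background, 3 of them at least 2-fold.

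**Figure D1:**
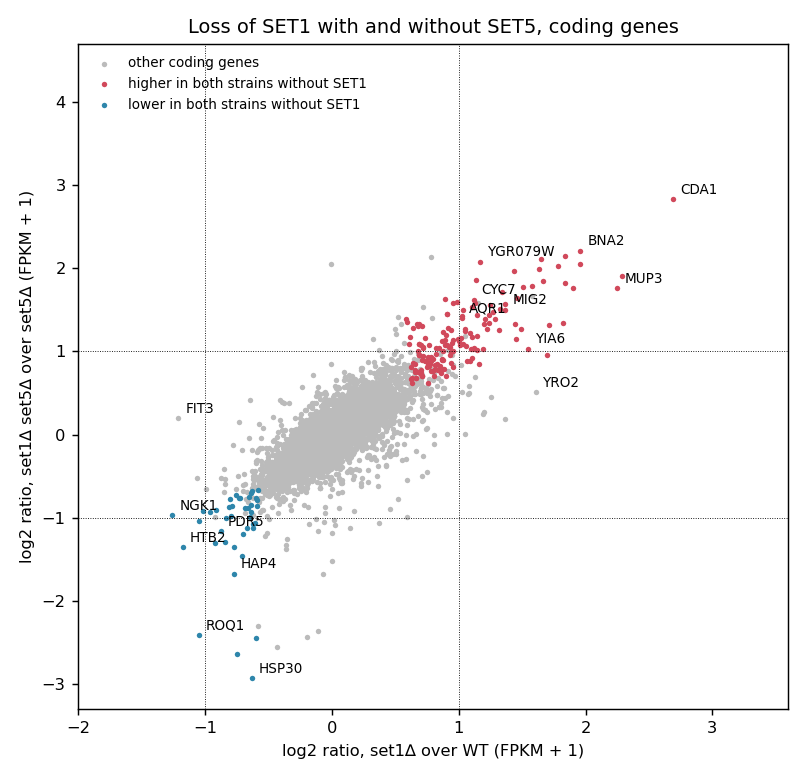
Log2 ratio of each coding gene in set1∆ over WT (horizontal) and in set1∆ set5∆ over set5∆ (vertical), both on FPKM + 1, for the 5581 coding genes of at least 300 bp above 0 in all strains, SET1 left out. Red and blue points are the 158 genes higher and the 41 genes lower in both strains without SET1 than in every strain with it by at least 1.5 times, and dotted lines mark 2-fold. Most coloured points lie along the diagonal, with CDA1 at the upper right and HTB2, HSP30 and ROQ1 at the lower left. That both ratios of a coloured point have the same sign follows from the rule for the colours.

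Across the 5582 coding genes of at least 300 bp above 0 in every strain, SET1 included, the ratios in the 2 backgrounds had a Pearson r of 0.81 and a Spearman rho of 0.79. Pearson's r was 0.80 without SET1. Genes are not independent replicates, and the points share the libraries of 4 strains, so these figures are descriptions only. The SD of the ratio across genes was 0.33 in set1∆ and 0.40 in the second background. For the whole table the median ratios were -0.00 and 0.00, and the medians of the 16 chromosomes in set1∆ lay between -0.02 and 0.05.

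A stricter description used all 5 strains. In 195 features (2.98%) the value plus 1 was at least 1.5 times higher in both strains without SET1 than in any of the 3 strains with it, and in 54 (0.826%) it was lower by the same margin, SET1 among them. These are called separated below. They include 93 of the 155 features that were 2-fold higher in set1∆ and 10 of the 32 that were 2-fold lower. Among them were 80 coding genes of at least 300 bp and 10 FPKM on the high side and, SET1 left out, 41 on the low side.

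The ratio depended on the level of the transcript. Over the 180 features with a mean of 1 to 3 FPKM the median ratio of set1∆ to the WT was 0.50, and it was 0.20 over the 568 features at 3 to 10 FPKM and 0.06 over the 1732 at 10 to 30. Above that it was -0.01 at 30 to 100 FPKM, -0.05 at 100 to 300, -0.11 at 300 to 1000 and -0.15 over the 299 features of at least 1000 FPKM. Scarce transcripts were therefore mostly higher and abundant ones mostly lower without SET1. The second background ran from 0.50 in the lowest class to -0.29 in the highest, whereas set5∆ against the WT stayed between -0.04 and 0.01 and SET5 Y402A against the WT between -0.06 and 0.06. Both of these and set1∆ against the WT share the WT column. After quantile normalization, which forces all strains to the same distribution of values, the medians of the classes in set1∆ lay between -0.07 and -0.03. Since no source used here gives the authors' scaling between strains, the part of that scaling in the trend was not tested, and the trend bears on every group of scarce or very abundant genes below.

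**Figure D2:**
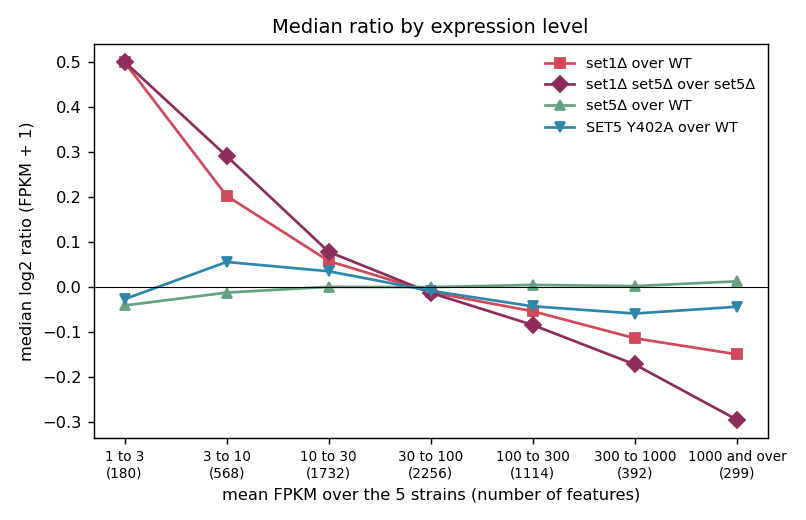
Median log2 ratio (FPKM + 1) of features grouped by their mean FPKM over the 5 strains, with the number of features in brackets, for 4 comparisons. Both comparisons that remove SET1 slope down from 0.50, and both comparisons that alter SET5 alone stay within 0.06 of 0.

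Middle sporulation genes, which build the spore wall and prospore membrane and are known for their induction in meiosis, had more members past 2-fold than any other list of coding genes examined. Of 32 members 30 could be compared, and 25 were higher in set1∆, 9 of them at least 2-fold, beside 2.37% of all features. Of the 30, 14 were separated on the high side, beside 2.98% of all features. Their median ratio was 0.63 and 0.74 in the second background. The promoters of such genes carry the middle sporulation element, bound by the repressor Sum1 in growth and by the activator Ndt80 in meiosis. The letters GNCACAAA, searched on both strands in the 250 bases before the start codon, were found in 198 of 5859 coding promoters (3.38%) and in 18 of the 30 sporulation promoters. They were found in 27 of the 173 separated higher coding genes (15.6%) and 4 of the 48 separated lower ones (8.33%). A match is a description of the letters and not a site or a cause. The promoters below belong to the 4 separated genes with the highest ratio among those that hold the element and reach 5 FPKM. None of the 4 is on the sporulation list, and they are shown because the element was found outside that list too. Sequences are RefSeq, assembly R64, 250 bases ending before the start codon, written 5′ to 3′ on the strand of the gene, with the element in capitals. No source used here names the build behind the table. IRC18 lies at chrX:376412-376661 (plus strand), YFL012W at chrVI:110397-110646 (plus), YOL024W at chrXV:276836-277085 (plus) and YOR338W at chrXV:956648-956897 (plus).
IRC18: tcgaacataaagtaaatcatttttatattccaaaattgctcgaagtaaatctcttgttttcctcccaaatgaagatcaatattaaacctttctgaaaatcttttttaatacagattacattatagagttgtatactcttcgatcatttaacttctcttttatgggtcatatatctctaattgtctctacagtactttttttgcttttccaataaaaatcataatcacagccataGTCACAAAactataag
YFL012W: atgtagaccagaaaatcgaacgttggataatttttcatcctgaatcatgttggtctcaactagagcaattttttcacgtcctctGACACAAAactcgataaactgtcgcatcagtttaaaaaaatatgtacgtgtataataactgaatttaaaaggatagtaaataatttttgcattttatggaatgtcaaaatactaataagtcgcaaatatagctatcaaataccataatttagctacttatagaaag
YOL024W: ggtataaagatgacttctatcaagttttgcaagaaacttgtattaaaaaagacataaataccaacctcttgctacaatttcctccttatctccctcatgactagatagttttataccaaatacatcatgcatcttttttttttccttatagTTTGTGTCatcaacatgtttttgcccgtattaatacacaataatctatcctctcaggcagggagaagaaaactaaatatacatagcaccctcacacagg
YOR338W: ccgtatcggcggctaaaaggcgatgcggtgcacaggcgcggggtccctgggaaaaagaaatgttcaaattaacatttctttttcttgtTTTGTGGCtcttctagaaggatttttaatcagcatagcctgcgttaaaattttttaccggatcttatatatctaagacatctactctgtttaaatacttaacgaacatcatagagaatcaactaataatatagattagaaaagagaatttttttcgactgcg

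The element lies 16 bases before the start codon of IRC18 and 166, 99 and 162 bases before those of the other genes. IRC18 stood at 1.60, 7.26, 1.65, 8.57 and 1.23 FPKM, YFL012W at 2.58, 10.1, 1.75, 9.97 and 2.80, YOL024W at 1.78, 6.81, 1.86, 5.91 and 1.76, and YOR338W at 14.0, 37.0, 16.4, 56.3 and 13.7. That the strains without SET1 lie above the strains with it in each follows from the rule for separated genes.

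Holding the element did not fix the response. In the windows below it is in capitals with 20 bases on each side, taken from R64 on the strand of the gene. PES4, SPO19 and SPR28 had ratios of 1.90, 1.14 and 1.20, whereas GAS2 and SMK1 had ratios of -0.32 and -0.63. SPS19 and SPS18 are divergent and share a single copy, read here from both sides, with ratios of 0.65 and 0.12. PES4 lies at chrVI:199624-199671 (plus strand), SPO19 at chrXVI:304203-304250 (plus), SPR28 at chrIV:905122-905169 (minus), GAS2 at chrXII:815929-815976 (plus), SMK1 at chrXVI:666181-666228 (plus), and SPS19 (plus) and SPS18 (minus) at chrXIV:259357-259404.
PES4: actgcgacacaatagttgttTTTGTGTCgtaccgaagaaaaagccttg
SPO19: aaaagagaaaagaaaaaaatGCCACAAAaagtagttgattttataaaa
SPR28: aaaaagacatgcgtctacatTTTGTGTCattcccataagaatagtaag
GAS2: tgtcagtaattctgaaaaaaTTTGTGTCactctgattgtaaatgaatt
SMK1: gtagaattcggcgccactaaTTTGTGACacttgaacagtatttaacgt
SPS19: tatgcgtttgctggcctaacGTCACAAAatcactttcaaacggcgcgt
SPS18: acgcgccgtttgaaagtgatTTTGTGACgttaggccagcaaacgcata

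PES4 stood at 0.371, 4.13, 0.339, 3.53 and 0.709 FPKM and SPR28, a septin of the prospore membrane, at 0.857, 3.26, 1.02, 4.06 and 0.579. DIT1, which makes the dityrosine of the outer spore wall, stood at 2.89, 8.77, 2.87, 10.01 and 3.31 FPKM, and its divergent neighbour DIT2, which completes that step, at 2.28, 4.94, 2.53, 4.91 and 2.31. These remained low levels even without SET1. SMK1, a sporulation kinase gene, stood at 25.9, 16.4, 25.3, 18.4 and 22.8 FPKM, lower in both strains without SET1. Most members had a mean under 10 FPKM, in the classes with a positive median, and the median of the list was 0.21 with quantile-normalized values and 0.05 over the 7 members that averaged 10 FPKM or more.

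The genes that act before the middle genes gave another picture. The early meiotic genes, for recombination and the synaptonemal complex, had 15 of 25 members higher, 1 at least 2-fold, beside 2.37% of all features. Their median of 0.09 was -0.26 with quantile-normalized values and -0.43 over the 3 members that averaged 10 FPKM or more. NDJ1, which ties telomeres to the nuclear envelope in meiosis, was separated on the low side at 28.4, 15.8, 30.5, 17.5 and 31.3 FPKM. MAM1, a monopolin gene, was separated on the high side at 1.20, 3.81, 0.645, 3.92 and 1.20 FPKM. Among 10 meiotic regulators none reached 2-fold and the median was -0.13. NDT80, the activator of the middle genes, stood at 13.4, 7.04, 12.3, 8.17 and 11.9 FPKM, and RIM4, an RNA-binding regulator of meiosis, at 10.9, 7.16, 11.5, 8.05 and 11.9, both lowest in the strains without SET1. SUM1, the repressor, had a ratio of -0.23, its partners HST1 and RFM1 ratios of -0.04 and 0.20, and none of the 8 genes of the Set3 and Sum1 deacetylase complexes reached 2-fold.

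NAD genes split within the pathway. In yeast NAD is made from tryptophan by the BNA enzymes, taken up as nicotinic acid by Tna1 and carried into mitochondria by Yia6, and the pathway is held down by the NAD-dependent deacetylase Hst1 acting with Sum1. BNA2, which opens the route, stood at 3.05, 14.7, 2.45, 14.98 and 2.85 FPKM, BNA4 at 22.0, 41.1, 19.4, 36.9 and 21.8, and TNA1 at 214, 391, 214, 468 and 203. All 3 were separated on the high side, with BNA2 the only one of the list past 2-fold in set1∆. The gene BNA2 overlaps another annotated gene, and reads of the pair cannot be told apart without strand. YIA6 stood at 5.61, 18.3, 9.13, 19.7 and 9.93 FPKM, also separated. The other 4 enzymes of the route were lower in both strains without SET1, with BNA6 at 98.7, 63.3, 100.1, 62.4 and 100.2 FPKM separated on the low side, and BNA1, BNA5 and BNA7 at ratios of -0.39, -0.47 and -0.43. NPT1, which salvages nicotinic acid, was at 207, 161, 227, 153 and 237 FPKM, and the nicotinamide riboside transporter gene NRT1 at ratios of -0.12 and -0.11. All 9 genes of the list had the same sign in both backgrounds, 3 higher and 6 lower, with a median of -0.36 in set1∆.

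**Figure D3:**
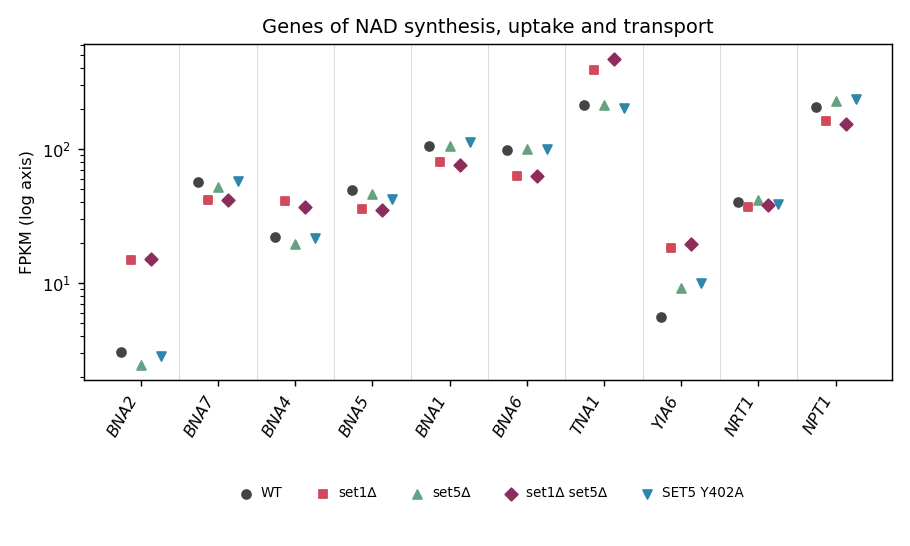
FPKM (log axis) of 10 genes of NAD synthesis, uptake and transport, with 1 point for each of the 5 strains. In BNA2, BNA4, TNA1 and YIA6 the squares and diamonds of the strains without SET1 stand above the other points, and in BNA1, BNA5, BNA6, BNA7 and NPT1 below them.

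Core histone genes were all lower without SET1. The genes lie in divergent pairs and are transcribed in S phase. All 8 had a negative ratio in both backgrounds, with medians of -0.62 and -1.002. Of the 8, 5 were separated on the low side, beside 0.826% of all features, although HTB2 alone was past 2-fold in set1∆. HHF2, histone H4, stood at 3759.5, 2306, 4651, 2029.8 and 5197 FPKM, and HHT1, histone H3, at 1993, 1484, 2368, 1232 and 2807. The values of the 3 strains with SET1 lay above those without it in all 8 genes. With quantile-normalized values the medians were -0.48 and -0.72. The class of at least 1000 FPKM, to which these genes belong, had a median of -0.15 in set1∆ and -0.29 in the second background. The 9 genes of histone gene regulators and chaperones had a median of -0.06 and none past 2-fold. SPT21, a coactivator of histone genes, was at 0.29 and the chaperone gene RTT106 at -0.26, while the linker histone HHO1 was at -0.36, H2A.Z (HTZ1) at -0.19 and the centromeric CSE4 at 0.25.

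Genes of the G2/M cluster, transcribed by Fkh2, Ndd1 and Mcm1 before mitosis, were all somewhat higher. In both backgrounds 18 of 18 were higher, none past 2-fold, with medians of 0.46 and 0.55. DBF2, a kinase of mitotic exit, was separated at 29.6, 48.6, 29.04, 49.3 and 30.1 FPKM, and CLB1, a mitotic cyclin gene, stood at 44.3, 69.5, 44.6, 59.6 and 50.6. The Fkh letters GTAAACAA, on either strand, were found in 6 of the 18 promoters (33.3%) and in 2.76% of all coding promoters. The windows of the copies in DBF2 at chrVII:667952-667999 (plus strand) and HOF1 at chrXIII:335078-335125 (plus) show the match in capitals with 20 bases on each side.
DBF2: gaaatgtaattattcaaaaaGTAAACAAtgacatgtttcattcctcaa
HOF1: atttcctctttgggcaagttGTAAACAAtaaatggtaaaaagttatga

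These genes had ratios of 0.69 and 0.47. Among the separated higher genes in general the Fkh letters were in 3.47% of promoters, close to the share of all promoters. In bulk RNA more cells in a phase and more RNA per cell cannot be told apart.

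Genes of other phases had mixed signs. Of 20 G1/S genes 7 were higher and none was past 2-fold in set1∆, with a median of -0.03. YOX1, a repressor of early cell cycle boxes, was separated at 37.5, 60.9, 30.2, 65.3 and 23.7 FPKM, and the S-phase cyclin gene CLB6 stood at 12.7, 18.7, 7.68, 22.1 and 7.04. The G1 cyclin gene CLN3, on neither the G1/S nor the M/G1 list and picked with its values in view, stood at 32.5, 63.6, 40.7, 80.0 and 44.4 FPKM. The 14 M/G1 genes, for daughter cell separation among others, had 7 higher and 7 lower in set1∆ and 2 higher in the second background, with DSE1 at -0.41 and PCL2 at 0.59. The MCB letters ACGCGT, of the G1/S factor MBF, were in 10 of 20 G1/S promoters but in 4 of the 173 promoters of separated higher genes (2.31%), against 2.95% of all.

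Replication licensing genes had a median of 0.18, with 12 of 18 higher and 1 past 2-fold, beside 2.37% of all features. That gene, CDC6, which loads the replicative helicase at origins, was separated at 9.65, 26.4, 8.62, 27.6 and 8.50 FPKM. All of MCM2 to MCM7, the subunits of the helicase, were higher in both strains without SET1 than in every other strain, with MCM2 at 16.996, 24.9, 17.9, 24.8 and 17.4 FPKM the furthest apart. The other 5 subunits of the origin recognition complex had ratios between -0.33 (ORC5) and 0.06 (ORC3).

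Genes linked to DNA damage were higher for the most part. HUG1, whose short product restrains ribonucleotide reductase after DNA damage, stood at 250.1, 1573, 279, 2554 and 253 FPKM, with ratios of 2.65 and 3.19. It is 207 bp long, under the length limit used above, and FPKM of so short a gene is less certain. RNR3, the damage-inducible large subunit of ribonucleotide reductase, was also separated at 3.90, 7.99, 4.14, 9.30 and 3.78 FPKM. RNR2 and RNR4, the small subunits, were at 277, 363, 299, 458 and 284 FPKM and at 659, 880.3, 653, 1075 and 626 FPKM, highest in the strains without SET1, while RNR1, the constitutive large subunit, was at 201, 164, 204, 192 and 189 FPKM. Of 9 genes in this list, picked after values were seen, 7 were higher and 1 was past 2-fold, beside 2.37% of all features. HST4, a sirtuin that protects genome stability, was separated at 9.43, 18.4, 8.00, 18.7 and 8.47 FPKM.

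Among single genes that were separated on the high side, several encode transporters and enzymes of nutrient use. GAP1, the general amino acid permease, stood at 12.0, 26.9, 11.9, 23.3 and 10.4 FPKM. PHO89, a sodium-coupled phosphate transporter, stood at 10.9, 24.6, 11.9, 27.99 and 9.91, and AQR1, a plasma membrane exporter, at 77.3, 158, 76.5, 205 and 59.6. In each both strains without SET1 lay above all strains with it, as the rule for separated genes requires. CYC7, the hypoxic isoform of cytochrome c, stood at 8.51, 19.7, 5.61, 19.3 and 10.7 FPKM, and PKP1, a kinase of pyruvate dehydrogenase, at 12.2, 27.0, 16.966, 32.3 and 17.5. YNR064C, an epoxide hydrolase gene, was at 11.0, 27.5, 11.6, 36.0 and 12.0 FPKM. RRN11, of the core factor of RNA polymerase I, was at 31.4, 60.3, 25.7, 63.8 and 21.9 FPKM, and YGR079W, of no known role, at 64.03, 145, 40.3, 173 and 31.0. In both of these genes the strains altered in SET5 alone were below the WT.

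Separated low genes were fewer. NGK1 stood at 25.6, 10.1, 20.7, 10.1 and 20.03 FPKM, AFB1 at 45.03, 21.2, 42.2, 20.1 and 41.9, and PER33, a gene of the nuclear pore and endoplasmic reticulum membrane, at 144, 70.7, 149.9, 78.7 and 140.2. YNL040W stood at 37.7, 18.8, 35.7, 18.2 and 35.6 FPKM, MRF1, a release factor of mitochondrial translation, at 29.9, 16.8, 32.6, 16.1 and 34.2, and HCH1, an activator of Hsp90, at 499, 279, 523, 259 and 505. The low pair and the high group of 3 in these 6 genes follow from the rule for separated genes. Among the strains with SET1, NGK1 ranged from 20.03 to 25.6 FPKM. PAD1 and FDC1, adjacent genes whose products together decarboxylate phenylacrylic acids, stood at 65.5, 34.3, 63.2, 33.1 and 58.7 FPKM and at 57.7, 34.4, 56.6, 32.9 and 55.6.

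**Figure D4:**
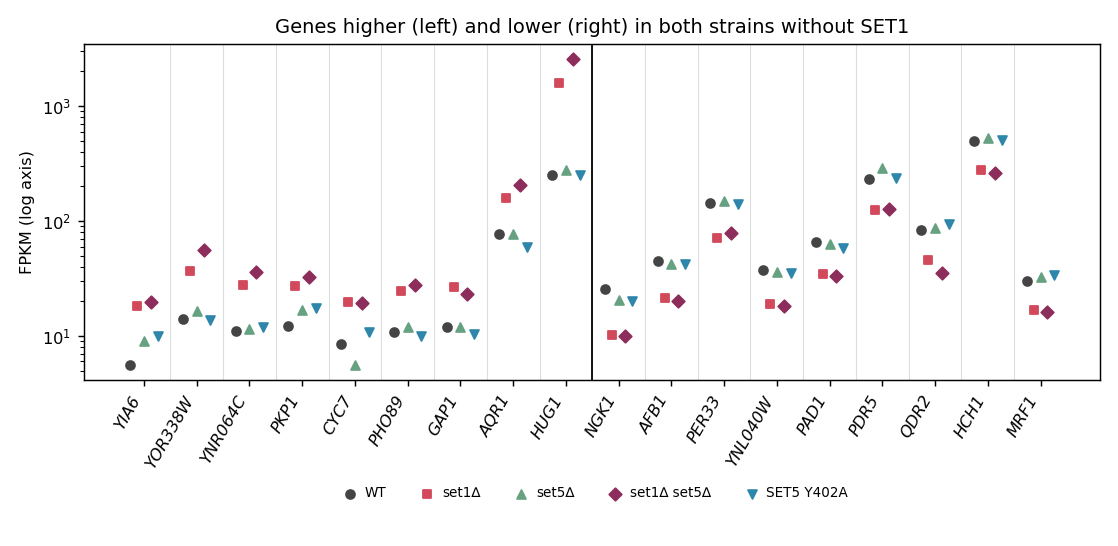
FPKM (log axis) of 9 genes higher and 9 genes lower in both strains without SET1, with 1 point for each of the 5 strains. Squares (set1∆) and diamonds (set1∆ set5∆) stand above the other 3 strains to the left of the black line and below them to its right, the widest gap being that of HUG1.

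Other low genes differed more among the strains with SET1. HAP4, the activating subunit of the regulator of respiratory genes, stood at 47.5, 27.3, 89.9, 27.5 and 115 FPKM. ROQ1, which redirects the ubiquitin ligase Ubr1, stood at 36.8, 17.2, 98.9, 17.8 and 151, and HSP30, a plasma membrane stress protein, at 17.9, 11.2, 93.5, 11.4 and 245. These genes were above the WT in both strains altered in SET5 alone and had nearly the same low level in both strains without SET1, so their ratios in the second background (-1.67, -2.41 and -2.93) were larger than in set1∆ (-0.77, -1.05 and -0.63).

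In central carbon metabolism the abundant glycolytic genes were lower. Of 21 glycolysis and fermentation genes 17 were lower, with a median of -0.30 in set1∆ and -0.42 in the second background, and only PDC6 was past 2-fold in set1∆. TDH2, glyceraldehyde-3-phosphate dehydrogenase, was separated at 6344, 4205, 7559, 4180.4 and 7209 FPKM, and HXK2, the main glucose kinase, stood at 1902, 1247, 1981, 1282 and 1736. TDH2 shares sequence with its paralogues, so its reads may be split between them. PDC6, a scarce isoform of pyruvate decarboxylase, went the other way at 1.04, 5.09, 0.974, 5.83 and 0.763 FPKM. With quantile-normalized values both medians were -0.18.

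The TCA cycle was split by enzyme. IDH1 and IDH2, the subunits of NAD-dependent isocitrate dehydrogenase, stood at 271, 176, 382, 194 and 371 FPKM and at 421, 304, 597, 324 and 589.7 FPKM, and MDH1, mitochondrial malate dehydrogenase, at 173, 135, 195, 124 and 204. All 3 were lowest in the strains without SET1. The succinate dehydrogenase genes SDH1, SDH2 and SDH4 had ratios of 0.45, 0.66 and 0.37 in set1∆ but of 0.28, 0.01 and 0.16 in the second background. Of 34 respiratory chain genes 28 were higher in set1∆ with a median of 0.24, yet 14 were higher in the second background with a median of -0.05. QCR10, of the cytochrome bc1 complex, stood at 202, 352, 241, 279 and 268 FPKM, so that set1∆ alone was far above the rest. The list was thus mostly higher against the WT but not in the second background. With quantile-normalized values the median in the second background was 0.08.

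Glucose-sensing genes were mixed. MIG2, whose product represses genes in high glucose, was separated at 58.4, 152, 62.7, 179 and 47.9 FPKM, and its paralogues MIG1 and MIG3 had ratios of 0.45 and -0.05. The high-affinity transporter genes HXT6 and HXT7, nearly identical in sequence, had ratios of -0.56 and -0.64, HXT3 of -0.50 and HXT10, a scarce transporter, of 1.24. HXT7 was separated on the low side and HXT10 on the high side. Genes of gluconeogenesis and the glyoxylate cycle had a median of 0.23 over 14 members, which turned to -0.14 over members that averaged 10 FPKM or more and to -0.04 with quantile-normalized values. The galactose genes had one of 0.16 over 7, which turned to -0.18 and -0.15 under the same settings. MDH2, cytosolic malate dehydrogenase, was the only member of either list past 2-fold, at 78.0, 179, 98.5, 203 and 94.6 FPKM. CAT8, the activator of gluconeogenic genes, was separated at 3.54, 6.01, 3.30, 6.56 and 3.64. Trehalose and glycogen genes had 14 of 16 higher, none past 2-fold, with medians of 0.20 and 0.17 that were 0.14 and 0.065 with quantile-normalized values, among them GSY2, the main glycogen synthase, at 24.4, 37.8, 27.8, 38.3 and 32.8 FPKM.

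**Figure D5:**
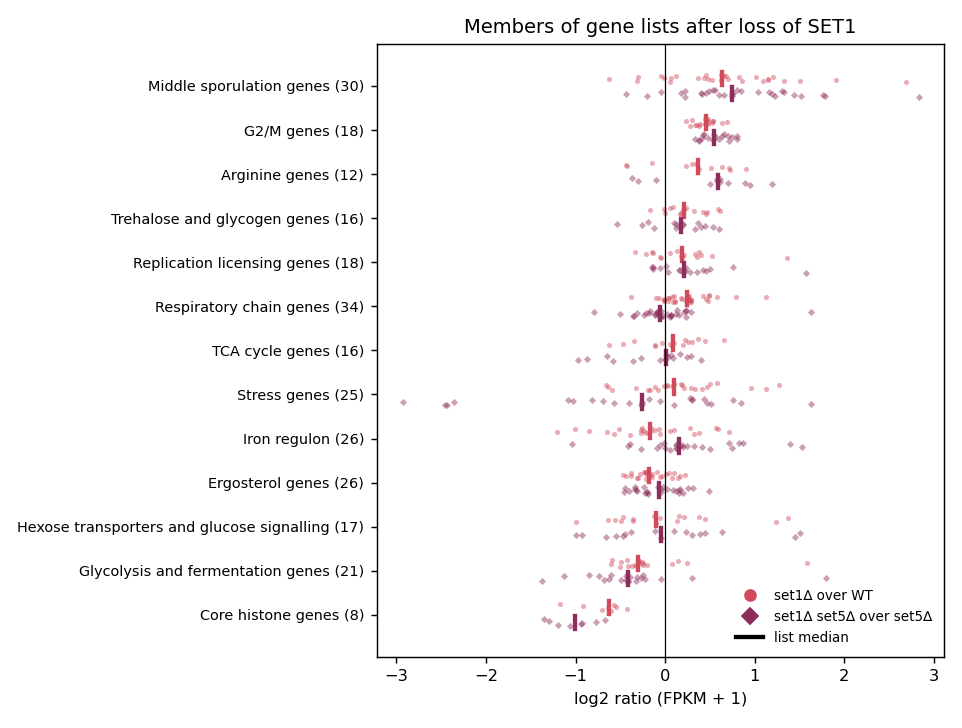
Log2 ratio (FPKM + 1) of each member of 13 gene lists, with the number of members in brackets, in set1∆ over WT (circles) and in set1∆ set5∆ over set5∆ (diamonds). Vertical bars are list medians. The core histone genes stand wholly below 0 and the G2/M genes wholly above it in both backgrounds, while the respiratory chain, stress and iron lists have their 2 medians on different sides of 0.

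Arginine genes were higher, along with a few other targets of amino acid control. Of 12 arginine genes 9 were higher in both backgrounds, none past 2-fold in set1∆, with medians of 0.36 and 0.59. ARG1, ARG3, ARG4 and ARG7, all enzymes of synthesis, were separated, with ARG1 at 37.0, 61.5, 35.2, 68.8 and 33.2 FPKM and ARG4 at 68.9, 113, 64.7, 106 and 61.8. HIS4, of histidine synthesis, stood at 61.9, 102, 56.2, 92.5 and 55.6 FPKM. The activator gene GCN4 was at 1551, 1373, 1746, 1406 and 1698 FPKM. The Gcn4 letters TGACTC were found in 7 of 12 arginine promoters, in 5 of 7 promoters of the histidine genes and GCN4, and in 6.33% of all coding promoters. They were in 20 of the 173 separated higher genes (11.6%) and in 7 of the 105 genes that were 2-fold higher in set1∆ (6.67%). Arginine genes with the letters went both ways. ARG2, ARG4, ARG56 and ARG7 were higher, whereas ARG8, ORT1 and CAR2 had ratios of -0.43, -0.15 and -0.44. The separated genes ARG1 and ARG3 were without these exact letters in the 250 bases searched, which does not show that they lack a Gcn4 site. The windows below, with 20 bases on each side, belong to ARG4 at chrVIII:141556-141601 (minus strand) and HIS4 at chrIII:68507-68552 (minus), which were higher, with 1 of the 2 copies of HIS4 shown, and CAR2 at chrXII:1012354-1012399 (plus), an enzyme of arginine breakdown with a ratio of -0.44.
ARG4: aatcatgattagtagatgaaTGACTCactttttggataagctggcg
HIS4: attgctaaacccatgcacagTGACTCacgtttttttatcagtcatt
CAR2: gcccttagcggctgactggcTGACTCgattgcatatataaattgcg

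The lysine and branched-chain genes, other targets of Gcn4, were not higher as groups, with medians of -0.10 over 8 and -0.22 over 10 and none past 2-fold. LYS9, saccharopine reductase, stood at 203, 139, 189, 139 and 172 FPKM and BAT1, the mitochondrial branched-chain transaminase, at 719, 549, 996, 584 and 806.

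Sulfur and one-carbon genes differed by step. The methionine permease genes were separated, with MUP3, of low affinity, at 2.01, 13.3, 3.83, 15.4 and 6.90 FPKM and MUP1, of high affinity, at 93.4, 151, 61.9, 158 and 66.4. STR3, cystathionine β-lyase, at 1.98, 4.99, 2.04, 5.41 and 1.78 FPKM, and MET6, methionine synthase, at 77.6, 123, 76.1, 123 and 62.9, were separated as well. The list as a whole had 14 of 28 members higher and a median of 0.00, and the sulfate assimilation genes MET3, MET14 and MET16 had ratios of 0.01, 0.17 and 0.25. Since MET17 is deleted in this background, the sulfur pathway is interrupted in every strain here. Among 13 purine genes 8 were higher with a median of 0.14, and ADE17, which makes inosine monophosphate, was separated at 54.1, 101, 43.8, 93.9 and 36.6 FPKM.

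Nitrogen and vitamin genes were examined after their values were seen. Of 26 nitrogen-regulated genes 22 were higher, 3 past 2-fold beside 2.37% of all features, with medians of 0.20 and 0.22 in the 2 backgrounds that were 0.11 and 0.04 with quantile-normalized values. Beside GAP1 those were DAL1, allantoinase, at 2.84, 7.27, 2.08, 7.89 and 2.72 FPKM, and DAL80, a repressor of nitrogen genes, at 0.349, 3.41, 0.691, 3.23 and 0.622. Of 18 thiamine genes 13 were higher and 2 past 2-fold, with medians of 0.22 and 0.44. These were 0.12 and 0.28 with quantile-normalized values and 0.075 and 0.052 over the 10 members that averaged 10 FPKM or more. THI4, of thiazole synthesis, stood at 5.40, 12.8, 5.63, 12.5 and 5.92 FPKM. THI5, THI11, THI12 and THI13 are near-identical copies and do not count as separate measurements.

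Phosphate, iron and sterol genes gave no common direction. Of 16 phosphate genes 10 were higher with a median of 0.04. The acid phosphatase gene PHO5 stood at 130.1, 242, 114, 156 and 104 FPKM, high in set1∆ above all, and VTC2, of polyphosphate synthesis, at 106, 79.1, 101, 72.6 and 98.8. Of 26 iron regulon genes 18 were lower in set1∆ and 18 were higher in the second background, with medians of -0.17 and 0.15. Ergosterol genes had 19 of 26 lower, none past 2-fold, with medians of -0.18 and -0.07, which were -0.088 and 0.04 with quantile-normalized values. ERG4, of the last step, stood at 479, 345, 485, 386 and 446 FPKM.

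Exporters of drugs went in both directions. PDR5, an ABC transporter and the main drug pump of yeast, stood at 231, 125, 289, 128 and 239 FPKM, and QDR2 at 83.0, 45.8, 87.3, 35.0 and 93.5. Both were separated on the low side. AQR1 and ATR1, the latter at 29.4, 50.6, 28.7, 61.5 and 25.2 FPKM, were separated on the high side. The regulator genes PDR1 and PDR3 had ratios of 0.07 and -0.33. The list of 21, chosen after values were seen, had 12 higher and a median of 0.01.

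Cell wall and subtelomeric families differed in direction. Seripauperin genes had 15 of 17 higher and 4 past 2-fold, beside 2.37% of all features. Their medians were 0.62 and 0.49, and 0.33 and 0.22 with quantile-normalized values. Their copies share most of their sequence. TIR3, an anaerobic mannoprotein gene, was separated at 37.3, 72.1, 37.9, 79.7 and 32.3 FPKM, and FLO10, a flocculin gene, at 4.02, 7.70, 4.25, 8.84 and 4.59. FLO11 stood at 3.18, 6.09, 4.09, 7.10 and 3.77 FPKM, and the flocculin list as a whole had 3 of 6 higher and a median of 0.04, or -0.14 with quantile-normalized values. The COS genes, a subtelomeric family of membrane proteins whose copies share sequence, had 9 of 11 lower, with medians of -0.18 in both backgrounds and of -0.28 and -0.17 with quantile-normalized values. COS12 alone was past 2-fold, on the high side at a ratio of 1.58. It stood at 1.86, 7.53, 7.06, 24.7 and 7.45 FPKM, so set1∆ was at the level of set5∆ and SET5 Y402A, strains with SET1. Of the 295 outermost genes at chromosome ends (10 at each end), 22 (7.46%) were at least 2-fold higher and 1 lower, beside 2.37% higher over all features, with a median of 0.07. The silencing factors had 6 of 10 higher, none past 2-fold, with a median of 0.06 that was -0.04 with quantile-normalized values and with SIR3 at 14.2, 19.4, 14.3, 19.7 and 14.7 FPKM. Of 20 mating genes 11 were higher and 1 was past 2-fold, namely FIG1, of cell fusion, at 1.62, 5.19, 1.48, 5.31 and 2.03.

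Stress genes had 16 of 25 higher in set1∆, 2 past 2-fold beside 2.37% of all features, with a median of 0.10. In the second background 10 were higher, with a median of -0.26. HSP12 stood at 47.0, 91.8, 70.6, 127 and 84.2 FPKM, and SSA1, a constitutive Hsp70, at 674, 426, 801, 455 and 929.6. SSA1 and SSA2 share sequence. YRO2, a plasma membrane protein related to Hsp30, was at 44.3, 137, 78.2, 112 and 137 FPKM, so its ratio of 1.61 in set1∆ was met by a like level in SET5 Y402A, a strain with SET1.

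Genes of protein synthesis and turnover had medians near 0 in set1∆. Of 135 cytosolic ribosomal protein genes 124 were lower, none past 2-fold, with medians of -0.12 and -0.30, which became -0.01 and 0.01 with quantile-normalized values. The 80 ribosome biogenesis genes had medians of 0.04 and 0.16, the 56 mitochondrial ribosomal protein genes -0.07 and -0.25, and the 33 proteasome genes -0.00 and -0.15. Among other histone-modifying enzymes, the H3K4 demethylase gene JHD2 stood at 7.86, 10.6, 7.16, 11.6 and 6.42 FPKM and LEO1, of the Paf1 complex upstream of Set1, at 131, 99.1, 127, 96.8 and 129. JHD2 was thus higher and LEO1 lower in both strains without SET1, neither at 2-fold.

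Some of the separated genes were neighbours. Of the 173 separated higher coding genes 34 (19.7%) had a direct neighbour that was separated in the same direction, beside 5.24% of all 5859 coding genes with such a neighbour. Of the 48 separated lower ones it was 10 (20.8%), beside 1.502%. The higher genes formed 7 divergent, 5 convergent and 6 tandem pairs and the lower ones 3, 1 and 1. The divergent pair LOH1 and IRC18 had ratios of 1.51 and 1.67 and DIT1 and DIT2 of 1.33 and 0.86, while the convergent pair YOR338W and UBC11 had 1.34 and 0.66. On the low side the divergent histone pairs HTA2 with HTB2 and HHT2 with HHF2 were such neighbours, as were PAD1 and FDC1. YGR017W and YGR018C overlap, and without strand their reads cannot be told apart. Several of the higher pairs hold genes with near-identical copies elsewhere, between which reads can be shared. ERR1, beside HSP33, and ERR2, beside HSP32, had identical values in all 5 strains. Of the 50-base windows of SOR1 and SOR2 4.88% occur once in the genome, and of those of HXT15 and HXT16 5.80% and 6.04%. Such pairs are not separate measurements, so the share of 19.7% can count the same reads more than once.

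RNA features outside coding genes were erratic. Ribosomal RNA had 14 of 14 features higher in set1∆ with a median of 0.84, and 0.47 in the second background. Over the 12 features that averaged 10 FPKM or more the median in set1∆ was 1.49. These are repeat copies and not separate measurements, and several of the 5S copies have identical values. The 5S copy RDN5-1 stood at 179.7, 825, 335, 552 and 335 FPKM, and the 18S copy RDN18-1 at 247, 442, 243, 179.7 and 675, so that the latter was highest in SET5 Y402A. The library kit is one that selects polyadenylated RNA, and whether the carry-over of ribosomal RNA differed between libraries was not tested. Of 48 small nucleolar RNAs 7 were 2-fold higher and 1 lower, beside 2.37% and 0.489% of all features. Of the 48, 4 were listed at 0 in a compared strain, and the median was -0.00. An exact 0 can be a failed estimate, and 117 features had such a 0 in 1 strain or more. There were 5 features listed at 0 in all 3 strains with SET1 and above 1 FPKM in both without it, namely SNR60, YBR200W-A, YMR272W-B, YNL067W-A and YMR324C, and none of the reverse kind. SNR60 was listed at 419 and 423 FPKM in set1∆ and set1∆ set5∆ and YMR272W-B at 157 and 158, and no fold is given against strains listed at 0. Of the 155 features at least 2-fold higher 36 were not matched to the annotation, and of the 32 lower ones 5. Of all 6541 features compared 586 were not matched.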

How the data were processed

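The authors deposited 1 table of 6663 features with 1 value for each of 5 strains, read here as FPKM from the size of the values and the Cufflinks tools named. Per the submitters' processing notes, which give no role or order, the tools were R 2.15.1, TopHat2 2.0.5, Cufflinks 2.0.2 with Cuffdiff, and FastQC. How the 2 replicates were combined, the build, the annotation and the scaling are stated in no source used here, and depth is unknown. All 5 columns were used.

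Features that averaged 1 FPKM or more were compared as log2 ratios with a pseudocount of 1, with a threshold of 2-fold. Features were matched to RefSeq R64 by locus tag (5934) or symbol (82), and 647 were not matched. Counting was tested on simulated data. Python 3.11.15, pandas 2.3.3, numpy 2.4.6 and matplotlib 3.10.9 were used. No test was possible. FPKM of genes that share sequence or overlap are uncertain, since the libraries were not stranded.

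The members and lists were chosen with earlier results of these data known, and 4 lists (nitrogen, thiamine, ribonucleotide reductase and exporters) after their values were seen. Genes were named by rule: SET1, SET5, COMPASS and the neighbours of SET1, the 15 highest and 15 lowest coding genes of at least 300 bp that reached 10 FPKM in either strain, such genes past 2-fold in both backgrounds or separated over the 5 strains, and up to 4 members of a list with at least 5 FPKM, with its best known members. Others, such as HUG1, CLN3, the neighbour pairs and scarce sporulation genes, were picked with their values in view. The alternatives tried were other pseudocounts, filters and scalings. Those restricted to features above 0 in every strain or at least 95% unique were chosen after seeing the data.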

Additional observations from a re-analysis of the deposited data

Results flagged for a closer look

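A few results had opposite signs for loss of SET1 in the WT and in set5∆, and in none was the difference tested. The iron regulon had a median log2 ratio of -0.17 against the WT and 0.15 against set5∆, and FIT3, a cell wall mannoprotein gene of that list, ratios of -1.21 and 0.20. Stress genes had medians of 0.10 and -0.26. SIR2, the deacetylase of silent chromatin, had ratios of -0.47 and 0.21, and SHG1, of COMPASS, of 0.21 and -0.30.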

How the results depend on the processing

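No paired analysis was possible because the deposited columns combine the replicates, and no replicate could be left out for the same reason. With a pseudocount of 10, 47 features were higher and 11 lower in set1∆, and 53 and 33 were separated on the high and low sides. The second background then had 46 higher and 47 lower. Over features that averaged 10 FPKM or more, 66 were higher and 22 lower in set1∆, and 81 were separated on the high side. The second background had 65 higher and 65 lower, so the excess of higher features was absent there. With quantile-normalized values 101 were higher and 48 lower in set1∆, 115 higher and 90 lower in the second background, and 118 separated on the high side. Over coding genes of at least 300 bp above 0 in both strains compared, 79 were higher and 8 lower in set1∆, and 115 higher and 40 lower in the second background. Over features at least 95% unique 96 were higher in set1∆. Gluconeogenesis genes had medians of -0.14 (mean of at least 10) and -0.036 (quantile), and galactose genes of -0.18 and -0.15. In the second background the galactose genes had -0.13 (mean of at least 10), the flocculin genes -0.054 and -0.16 and the cytosolic ribosomal protein genes 0.013 (quantile). The causes were not tested. Of the 288 named genes, GAL10 changed sign in set1∆ with quantile-normalized values and SWD2, whose ratio was near 0, after scaling to a coding median of 0, and no other did under the alternatives run. Depth is unknown, so the counting error of scarce transcripts could not be given.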
